A study of Homo sapiens with 14 samples.

Results

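The comparison described here set DU145 cells carrying an shRNA against PAX6 beside DU145 cells carrying a scrambled, non-target control. DU145 is a human prostate cancer cell line. Members were taken by column: the 3 columns of shPAX6 libraries and the 3 of control libraries (shCON) in the deposited DU145 expression table, 6 of the 14 samples of the series. The shCON cells are labelled wild type in genotype and the shPAX6 cells PAX6 knockdown. Both were stable lines made with lentiviral shRNA and puromycin selection. They were kept in DMEM with fetal bovine serum and penicillin/streptomycin, with no further drug and no time course. The study made more than 1 PAX6 hairpin, and which of them these libraries carry is not given in the sources used here, so an effect of PAX6 loss and an off-target effect of that hairpin cannot be told apart. The labels do not say whether the 3 libraries of a group came from separate cultures, so the p-values below measure only the spread between these libraries. Poly-A RNA was sequenced, and gene levels were deposited in a unit read here as fragments per kilobase of transcript, scaled for sequencing depth (FPKM). Of 24199 features in the table, 13574 had a mean of at least 0.5 FPKM over the 6 libraries and were tested.

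PAX6 is a paired-box transcription factor of eye, brain and pancreatic islet development. The study knocked it down in DU145 cells to learn which genes depend on it. The lists described below are pathways and gene classes, with no list of neural genes. The interferon-stimulated genes encode the cell's antiviral machinery: sensors of foreign RNA, effectors that block viral entry or translation, and the STAT and IRF factors that switch the set on together. Epithelial junction proteins tie neighbouring cells to each other, membrane mucins coat the free surface, and integrins and laminins bind the cell to its basement membrane. The hypoxia response and glycolysis are run by HIF factors when oxygen falls.

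The summed FPKM was 473131, 485479 and 470857 in the shCON libraries and 570790, 448901 and 503696 in the shPAX6 libraries. Read depth is not known for this table, so no counting error can be given. Library 1 of shPAX6 stood apart: transcripts of cytosolic ribosomal proteins made up 19.9% of its total, against 12.7 to 15.7% in the other 5 libraries, and it took the far end of a first principal component that held 52.5% of the variance. The median feature lay 0.31 below the shCON mean in that library on the log2 scale, 0.01 below in library 2 and 0.07 below in library 3. The epithelial identity of the cells was checked on markers. KRT8, KRT18, KRT19 and KRT7, keratins of simple epithelia, ranged from 346 to 2263 FPKM. Of the 10 epithelial carcinoma markers listed, 9 were tested, and 6 of those had a log2 fold change below 0 (median -0.44). CDH1, CDH3, EPCAM and CLDN4 were among them, at levels far under those of the keratins, and KRT5 was listed at 0. KLK2, FOLH1 and TMPRSS2, products of luminal prostate cells, were listed at 0 in all 6 libraries.

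PAX6 itself (ENSG00000007372, chromosome 11 from 31806327 to 31839509, GRCh37) had 0.839, 1.23 and 1.57 FPKM under shCON and 0.0153, 0.274 and 0.0778 FPKM under shPAX6. All shPAX6 values lay below all shCON values. The log2 fold change -2.69 (SE 0.49, limma, adjusted p = 0.054) was just above the 0.05 threshold used throughout. The exact two-sided permutation test over 3 and 3 libraries gave p = 0.1 for PAX6, the smallest value it can give. PAX6 overlaps ELP4 on the opposite strand, and whether counting used strand is not given in the sources used here.

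Of the 13574 features, 163 passed at an adjusted p under 0.05, which is 1.2% (limma on log2(FPKM + 0.1), Benjamini-Hochberg adjustment over all features). Of these, 24 were higher in shPAX6 (0.177% of the features tested) and 139 were lower (1.02%). Features that fell had a median log2 fold change of -1.37, from -4.29 to -0.69, and those that rose had a median of 1.5, from 0.73 to 2.36. Of the 163, 128 (0.943% of those tested) changed at least 2-fold. The groups did not overlap for 3627 features (26.7%), with 2717 lower (20%) and 910 higher (6.7%), so a gene that merely does not overlap is common here. The median feature was shifted by -0.12, and every list below is set beside that shift. All fold changes are on the log2(FPKM + 0.1) scale, which understates changes of genes at low level. The number of calls rests on single libraries: without shCON library 1 or without shCON library 3 no feature passed, without shCON library 2 and shPAX6 library 3 there were 5 and 10, and without shPAX6 library 1 or 2 there were 922 and 903. At an unadjusted p under 0.05, 1617 and 1258 features were found without shCON library 1 and 3, against 2480 (18.3%) with all libraries.

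**Figure D1:**
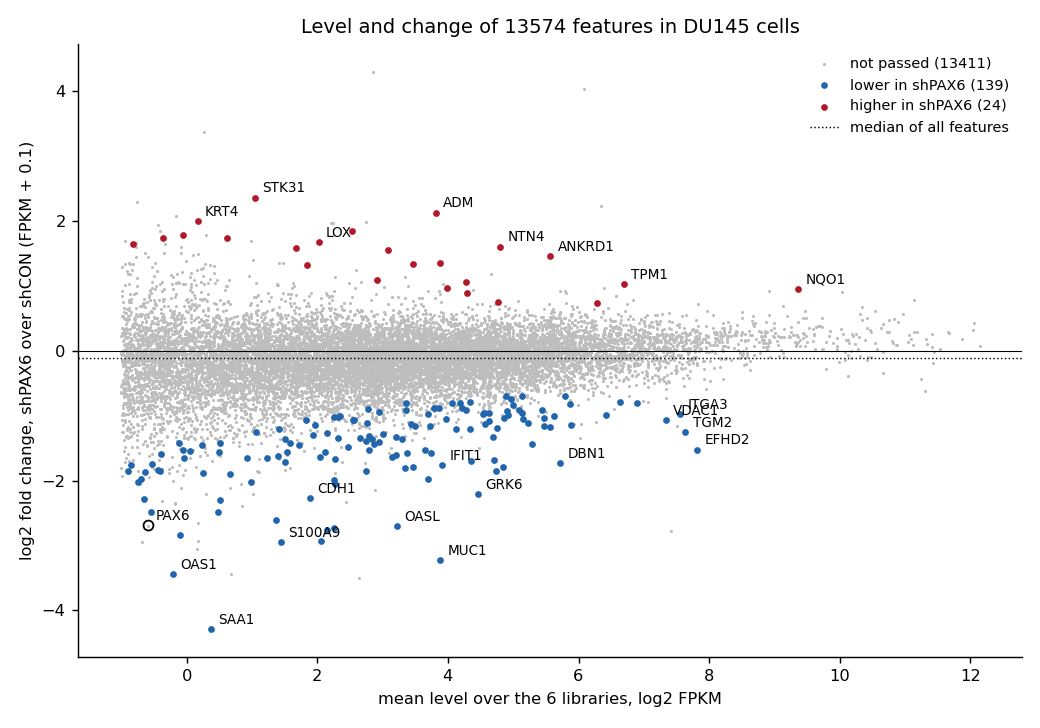
Mean expression over the 6 libraries (log2 FPKM, x axis) against the log2 fold change of shPAX6 over shCON (y axis) for each of the 13574 features tested. Features that passed are coloured by direction, the dotted line is the median of all features at -0.12, and 139 coloured points lie below 0 against 24 above.

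SAA1, an acute-phase apolipoprotein, had 2.72, 1.94 and 2.94 FPKM under shCON and 0, 0.135 and 0 FPKM under shPAX6. It was listed at 0 in shPAX6 libraries 1 and 3, so no fold is given (log2 fold change -4.29, SE 0.42, limma, adjusted p = 0.0096 in the fit, a value that depends on the pseudocount). MUC1, a membrane mucin of glandular epithelium, had 23.4, 28.1 and 28.5 FPKM under shCON and 3.67, 2.19 and 2.54 FPKM under shPAX6. The control libraries were about alike and every shPAX6 library was far below them, with means of 26.6 ± 2.82 and 2.8 ± 0.776 FPKM (SD, n = 3), a ratio of 9.52. Its log2 fold change -3.23 (SE 0.22, limma, adjusted p = 0.0032) is for the gene on chromosome 1 from 155158300 to 155162707 (GRCh37), which shares its strand and part of its span with another annotated gene. S100A9, a calcium-binding alarmin subunit, had 4.32, 5.06 and 5.2 FPKM under shCON and 0.802, 0.507 and 0.375 FPKM under shPAX6, with no overlap. S100A8, its usual partner, was listed at 0 in every library.

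Several genes with the steepest falls belong to none of the fixed lists. SUSD2, a sushi-domain membrane protein, had 7.64, 6.81 and 8.86 FPKM under shCON and 1.13, 0.964 and 1.07 FPKM under shPAX6 and a log2 fold change -2.76 (SE 0.20, limma, adjusted p = 0.0032). PDZK1IP1, a small membrane protein that binds PDZ scaffolds, had 7.84, 6.67 and 7.59 FPKM under shCON and 1.7, 0.489 and 0.769 FPKM under shPAX6 and a log2 fold change -2.94 (SE 0.39, limma, adjusted p = 0.025). The spread among its shPAX6 libraries was wider than that of SUSD2, but neither gene overlapped between groups. OGDHL, a mitochondrial enzyme related to oxoglutarate dehydrogenase, fell with a log2 fold change of -2.49, DIRAS1, a small GTPase of the RAS family, with -2.61, MB, which encodes myoglobin, with -2.49, PALM, a membrane-anchored lipoprotein, with -2.73, PDZD4 with -2.84, and GABRD, a GABA receptor subunit, with -2.29 (limma, adjusted p from 0.0032 to 0.039). MB and GABRD stood at 0.980 to 1.38 FPKM in the control libraries.

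The rises were fewer. STK31, a kinase-like protein normally found in germ cells, had 0.584, 0.475 and 0.786 FPKM under shCON and 3.09, 3.84 and 3.66 FPKM under shPAX6 and the largest rise, with a log2 fold change 2.36 (SE 0.25, limma, adjusted p = 0.014). ADM, which encodes the vasodilator peptide adrenomedullin, had 4.73, 5.8 and 5.06 FPKM under shCON and 25.8, 21.6 and 21.8 FPKM under shPAX6. The 3 shPAX6 libraries were 4.44 times the control level by their means (23.1 ± 2.37 against 5.2 ± 0.548 FPKM, SD, n = 3). The gene had a log2 fold change 2.13 (SE 0.16, limma, adjusted p = 0.0032). ADM lies on chromosome 11 from 10326620 to 10328944 (GRCh37). BMP6, a ligand of the TGF-beta superfamily, had 0.275, 0.255 and 0.375 FPKM under shCON and 0.977, 1.58 and 1.22 FPKM under shPAX6. F2RL2, a thrombin receptor of the PAR family, had 0.385, 0.312 and 0.416 FPKM under shCON and 1.18, 1.89 and 1.57 FPKM under shPAX6. Both were low in every control library and did not overlap (log2 fold changes 1.75 with adjusted p = 0.044 and 1.79 with adjusted p = 0.039, limma). Both met the level filter only through their shPAX6 values, as did NRG1 and FGB, given below. In the other direction, SAA1, PDZD4, OGDHL, MB, GABRD, OAS1, DHX58, TJP3, CFB, APOBEC3G and CARMIL2 met it only through their shCON values. So did PAX6 itself. The falls counted in the interferon, epithelial junction and acute-phase lists include such genes.

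Of more abundant transcripts, ANKRD1, an ankyrin-repeat protein known as a target of YAP, had 26.8, 24 and 24.9 FPKM under shCON and 60.5, 73.2 and 75.1 FPKM under shPAX6, and its log2 fold change 1.46 (SE 0.14, limma, adjusted p = 0.0096) was among the most certain of the rises. NTN4, a laminin-related netrin of basement membranes, had 15.5, 11.6 and 13.2 FPKM under shCON and 28.4, 56.5 and 42.5 FPKM under shPAX6, highest in shPAX6 library 2, and a log2 fold change 1.61 (SE 0.25, limma, adjusted p = 0.039). MARCH4, a membrane ubiquitin ligase, rose by a log2 fold change of 1.35, MYO5B, a motor of recycling endosomes, by 1.32, BEST3, a bestrophin chloride channel, by 1.74, TMEM156 by 1.55, KIAA1324 by 1.65 and NEFL, a neurofilament chain, by 1.58 (limma, adjusted p from 0.020 to 0.043). KRTAP2-3, a hair keratin-associated protein, rose by 1.85. It has near-identical copies between which counting may split fragments, so its value is uncertain.

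The interferon-stimulated genes had the lowest median and the most falls of the 43 lists examined. Of 45 listed genes, 36 were tested, and 11 of them fell (30.6%, against 1.02% of all features) while none rose. All but BST2 had a log2 fold change below 0, and 23 of the 36 had every shPAX6 value below every shCON value (20% of all features did). The list's median log2 fold change was -1.11, against -0.12 for all features. Over the 18 alternatives the median of the list minus that of all features ran from -1.03 to -0.66. The list's summed level was 640.4, 703 and 773 FPKM in shCON and 389, 284 and 316 FPKM in shPAX6. In bulk RNA, fewer cells that express these genes and less RNA per cell cannot be told apart. The number of members that fell was 17 without shPAX6 library 1, 18 without shPAX6 library 2, 1 without shCON library 2, 2 without shPAX6 library 3, and 0 without shCON library 1, without shCON library 3 or with the replicate number as a block.

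Of the 7 RNA sensors and oligoadenylate synthetases tested, 3 fell (42.9%, against 1.02% of all features). OASL, an oligoadenylate synthetase-like protein that tunes RIG-I signalling, had 14.8, 15.1 and 18.7 FPKM under shCON and 2.73, 2.1 and 2.36 FPKM under shPAX6. The 2 groups were far apart, with means of 16.2 ± 2.15 and 2.4 ± 0.315 FPKM (SD, n = 3), a ratio of 6.75 and a log2 fold change -2.71 (SE 0.18, limma, adjusted p = 0.0032) (gene on chromosome 12 from 121455566 to 121477049, GRCh37). OAS1, which makes the oligoadenylate messenger of RNase L, had 1.56, 1.88 and 1.54 FPKM under shCON and 0, 0.182 and 0.0474 FPKM under shPAX6. It was listed at 0 in shPAX6 library 1, so no fold is given (adjusted p = 0.020, limma). DHX58, the LGP2 helicase, had 2.31, 1.86 and 3.11 FPKM under shCON and 0.286, 0.535 and 0.415 FPKM under shPAX6 and a log2 fold change of -2.3 (adjusted p = 0.025). The other sensors had smaller differences: OAS3 -1.2 (adjusted p = 0.16), IFIH1 (MDA5) -0.97 (adjusted p = 0.18), EIF2AK2 (PKR) -0.39 (adjusted p = 0.62) and DDX58 (RIG-I) -0.12 (adjusted p = 0.85), all by limma. OAS2 was below the level filter, with means of 0.52 FPKM in shCON and 0.052 FPKM in shPAX6.

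Of the 17 antiviral effectors tested, 7 fell (41.2%, against 1.02% of all features). IFIT1, which binds viral RNA that lacks a host cap, had 23.7, 22.7 and 23.3 FPKM under shCON and 6.33, 6.38 and 7.69 FPKM under shPAX6. Its libraries agreed closely within each group, and the log2 fold change -1.76 (SE 0.14, limma, adjusted p = 0.0046) was the most certain of the effectors. IFIT3 had 14, 13.9 and 13.7 FPKM under shCON and 3.75, 5.45 and 4.4 FPKM under shPAX6 (log2 fold change -1.61 with adjusted p = 0.016, limma) and IFIT2 had 7.33, 6.77 and 8.0 FPKM under shCON and 1.66, 3.24 and 2.08 FPKM under shPAX6 (log2 fold change -1.67 with adjusted p = 0.038, limma). These neighbouring genes of chromosome 10 overlap the annotated span of LIPA on the opposite strand. MX1, a dynamin-like GTPase that traps viral nucleocapsids, had 16.1, 15.8 and 19.7 FPKM under shCON and 4.3, 5.65 and 4.82 FPKM under shPAX6 and a log2 fold change of -1.78 (adjusted p = 0.0096) by limma. It overlaps TMPRSS2, which was listed at 0 in all 6 libraries. IFITM3, a membrane protein that blocks viral fusion, had 35.5, 42.7 and 45.8 FPKM under shCON and 17, 7.67 and 11.2 FPKM under shPAX6, and its near copy IFITM2 had 37.5, 38.7 and 42.1 FPKM under shCON and 17, 8.73 and 12.4 FPKM under shPAX6 (log2 fold changes -1.85 and -1.68). Fragments may be split between those copies. IFI44 had 3.11, 2.19 and 2.33 FPKM under shCON and 0.441, 0.638 and 0.76 FPKM under shPAX6 and a log2 fold change of -1.9 (adjusted p = 0.033) by limma.

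Abundant effectors that did not pass were also lower in each shPAX6 library. ISG15, the ubiquitin-like modifier, had 216, 246 and 274 FPKM under shCON and 174, 71.8 and 105 FPKM under shPAX6 (log2 fold change -1.15, SE 0.30, limma, adjusted p = 0.11). IFI6 had 72.5, 104 and 101 FPKM under shCON and 51.5, 27.7 and 32.8 FPKM under shPAX6 (log2 fold change -1.34, SE 0.25, limma, adjusted p = 0.056). In both, shPAX6 library 1 was the closest to the controls. IFITM1, IFI27, ISG20, IFIT5, SAMD9 and BST2 overlapped between groups.

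Of the 12 signalling and ubiquitin-like members tested, 1 fell: LGALS3BP, a secreted scavenger-receptor glycoprotein, with 12.3, 13 and 14.5 FPKM under shCON and 5.42, 4.4 and 5.94 FPKM under shPAX6 (log2 fold change -1.33, SE 0.17, limma, adjusted p = 0.023). Of the factors that drive the set, STAT2, IRF7 and IRF9 did not pass. STAT2 had 13.9, 14.1 and 15.9 FPKM under shCON and 2.68, 11.6 and 8.79 FPKM under shPAX6, with shPAX6 library 1 far below the other shPAX6 libraries, and IRF7 had 6.84, 8.75 and 10.2 FPKM under shCON and 4.9, 2.87 and 3.93 FPKM under shPAX6. Neither overlapped (log2 fold changes -1.15 with adjusted p = 0.27 and -1.13 with adjusted p = 0.078, limma). IRF9 had 1.24, 1.68 and 7.5 FPKM under shCON and 0.54, 1.02 and 1.68 FPKM under shPAX6, with shCON library 3 far above the rest.

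Genes outside the list, chosen after their values were seen, also take part in innate defence. TMEM173, the DNA-response adaptor STING, had 27.1, 27.7 and 30.2 FPKM under shCON and 13.5, 10.6 and 12.8 FPKM under shPAX6, with no overlap (log2 fold change -1.2, SE 0.14, limma, adjusted p = 0.020). APOBEC3G, a cytidine deaminase that restricts retroviruses, had 1.01, 1.28 and 1.43 FPKM under shCON and 0.257, 0.275 and 0.276 FPKM under shPAX6 (log2 fold change -1.85 with adjusted p = 0.032, limma). C19orf66, which blocks ribosomal frameshifting, fell by 1.12 and PARP10, a mono-ADP-ribosyltransferase, by 1.39 on the log2 scale.

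**Figure D2:**
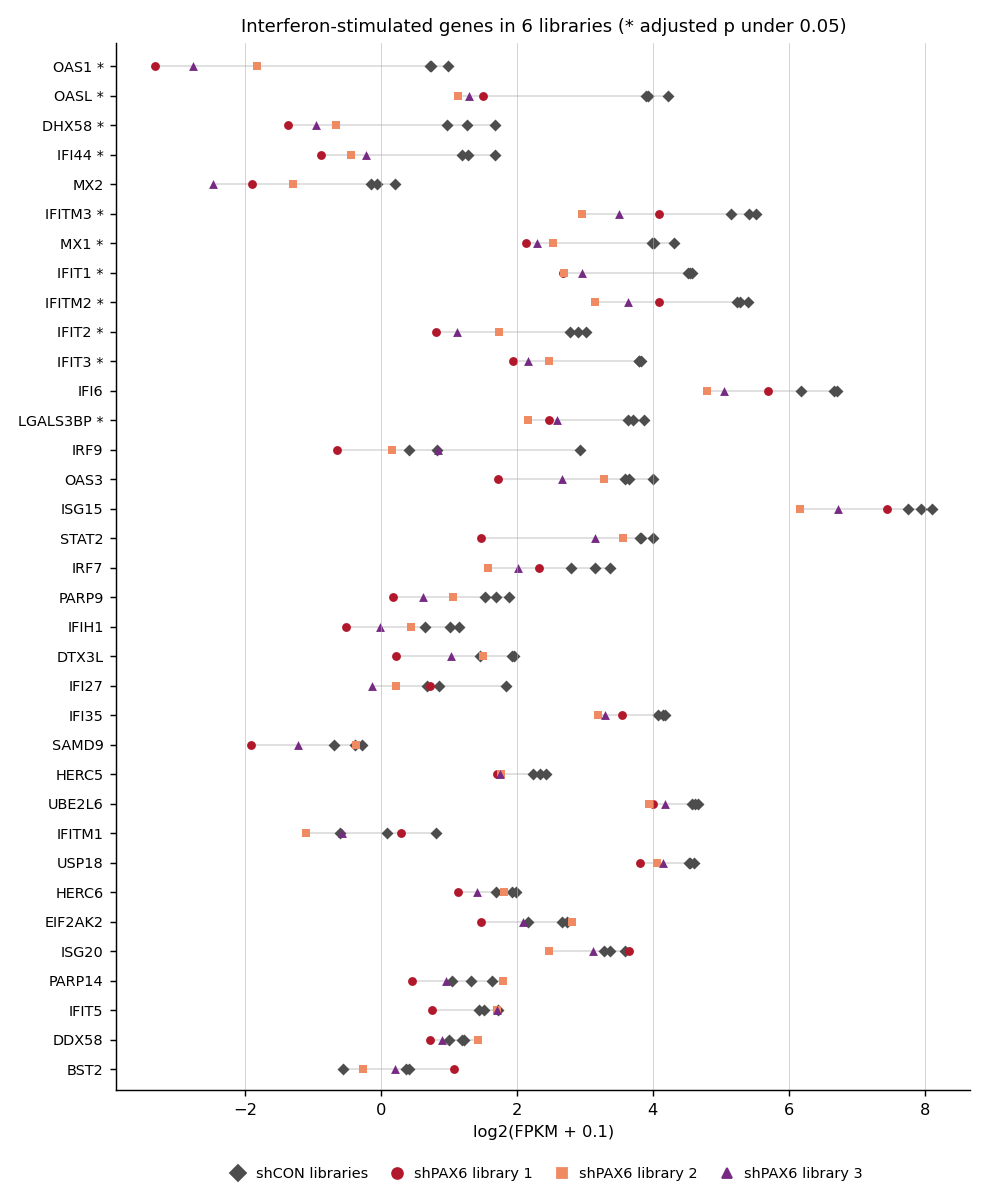
Level of 35 of the 36 tested interferon-stimulated genes in each library, as log2(FPKM + 0.1), ordered by log2 fold change and with the 11 that passed marked by an asterisk. Grey diamonds are the 3 shCON libraries, and each shPAX6 library has its own colour and marker. Of the 36 tested genes, 23 have every shPAX6 value below every shCON value.

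Promoters of these genes are shown because 35 of the 36 tested interferon genes had a log2 fold change below 0. The sequences are from RefSeq (GRCh38.p14), the 200 bases before the gene start read 5′ to 3′ on the gene's strand, with capitals marking each match, on either strand, to the core of the interferon-stimulated response element, the element bound by the interferon-activated complex that holds IRF9. OAS1 has no match to this pattern in its window, and IFIT1, IFIT3 and IFITM3 hold a pair each. The pattern has a fixed spacing, so forms with another spacing are not marked and OAS1 is not shown to lack the element. The windows are chr10:89392423-89392622 for IFIT1, chr10:89327797-89327996 for IFIT3, chr1:78649589-78649788 for IFI44, chr11:320861-321060 (minus strand) for IFITM3, chr17:78979924-78980123 (minus strand) for LGALS3BP and chr12:112906762-112906961 for OAS1.
IFIT1: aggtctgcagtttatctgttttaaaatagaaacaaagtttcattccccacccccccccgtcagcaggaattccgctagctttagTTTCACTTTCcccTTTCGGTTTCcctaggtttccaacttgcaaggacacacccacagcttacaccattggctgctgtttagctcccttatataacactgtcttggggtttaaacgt
IFIT3: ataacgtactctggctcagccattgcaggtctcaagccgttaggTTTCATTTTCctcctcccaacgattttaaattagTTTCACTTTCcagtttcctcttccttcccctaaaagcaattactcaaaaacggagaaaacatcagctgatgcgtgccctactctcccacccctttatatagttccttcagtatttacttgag
IFI44: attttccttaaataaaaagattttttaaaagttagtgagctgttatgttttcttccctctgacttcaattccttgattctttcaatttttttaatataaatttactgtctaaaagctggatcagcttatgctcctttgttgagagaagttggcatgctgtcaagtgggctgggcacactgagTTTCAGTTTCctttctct
IFITM3: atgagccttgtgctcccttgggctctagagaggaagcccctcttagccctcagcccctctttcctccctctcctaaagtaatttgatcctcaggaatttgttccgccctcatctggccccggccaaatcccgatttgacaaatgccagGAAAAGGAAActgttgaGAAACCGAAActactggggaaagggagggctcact
LGALS3BP: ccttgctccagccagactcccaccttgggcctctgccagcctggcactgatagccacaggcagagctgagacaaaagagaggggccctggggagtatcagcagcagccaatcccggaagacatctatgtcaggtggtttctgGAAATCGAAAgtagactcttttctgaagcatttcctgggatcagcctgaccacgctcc
OAS1: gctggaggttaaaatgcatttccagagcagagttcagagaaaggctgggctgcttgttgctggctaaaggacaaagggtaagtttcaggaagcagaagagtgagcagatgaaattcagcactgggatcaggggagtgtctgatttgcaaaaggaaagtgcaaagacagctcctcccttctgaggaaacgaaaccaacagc

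In windows of 250 bases before to 50 after the start, the motif was found in 6 of the 7 interferon genes that fell and have an entry (85.7%), with MX1 matching 12 bases after its start. It was found in 20 of 28 tested interferon genes with an entry (71.4%). Across all RefSeq promoters of that length the share was 3.65% of 27305, and among promoters of features tested it was 2.60% of 9740. Of all genes that fell it was in 7 of 91 (7.69%), and 6 of those 7 are the interferon genes just counted. It was in 0 of the 20 that rose. The match is a description of letters and not of a bound site. The STAT core TTCNNNGAA was also searched on both strands and was free to overlap the first motif. It was in 3.30% of promoters of genes that fell and 6.15% of those tested. Of the interferon genes with an entry, 7 of 28 tested (25%) and 1 of the 7 that fell (14.3%) held it.

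Acute-phase and complement proteins, which liver and epithelia secrete in inflammation, also lay low. Of 27 listed, 12 were tested, SAA1 fell, none rose, and the median log2 fold change was -0.93 (-0.99 to -0.60 relative to all features over the alternatives). The 5 complement components tested had no overlap between groups, all on the lower side (20% of all features did), yet none passed. C3, the hub of the cascade, had 1.4, 1.15 and 1.97 FPKM under shCON and 0.422, 0.593 and 0.541 FPKM under shPAX6, and C1S, a protease of its classical arm, had 1.64, 1.3 and 1.59 FPKM under shCON and 0.45, 0.66 and 0.638 FPKM under shPAX6 (log2 fold changes -1.35 with adjusted p = 0.075 and -1.24 with adjusted p = 0.072, limma). CFB had 1.5, 1.18 and 1.67 FPKM under shCON and 0.229, 0.715 and 0 FPKM under shPAX6, listed at 0 in shPAX6 library 3. C2, a further complement protease that was not on the list and was chosen after its value was seen, did pass, with 2.08, 1.91 and 2.39 FPKM under shCON and 0.602, 0.827 and 0.782 FPKM under shPAX6 (log2 fold change -1.42, SE 0.24, limma, adjusted p = 0.043). C2 and CFB share part of an annotated span on the same strand. SERPINA1, the antitrypsin inhibitor, had 30.1, 31.8 and 32.1 FPKM under shCON and 19.2, 13 and 17.7 FPKM under shPAX6 (log2 fold change -0.93 with adjusted p = 0.055, limma). FGB, a fibrinogen chain, lay the other way with 0.226, 0.194 and 0.139 FPKM under shCON and 0.79, 1.23 and 0.546 FPKM under shPAX6 (log2 fold change 1.69, adjusted p = 0.074), as did CD55, a complement shield (log2 fold change 0.54, adjusted p = 0.18).

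The NF-kB and cytokine list was split. Of 33 tested, CCL20, a chemokine for CCR6-bearing lymphocytes, fell with 4.48, 5.14 and 4.88 FPKM under shCON and 2.2, 2.1 and 2.44 FPKM under shPAX6 (log2 fold change -1.07, SE 0.18, limma, adjusted p = 0.043), and none rose. The median was -0.20, close to that of all features, and reached 0.00 in the alternatives. TNFAIP2 had 101, 99.9 and 111 FPKM under shCON and 36.1, 59.1 and 53.9 FPKM under shPAX6 (log2 fold change -1.1 with adjusted p = 0.052, limma), and IL6 had 14.7, 13.3 and 11.2 FPKM under shCON and 5.0, 8.68 and 6.95 FPKM under shPAX6 (log2 fold change -0.94, adjusted p = 0.096). These lay below every control library without passing. BIRC3 (log2 fold change 0.93, adjusted p = 0.17) and IL18 (log2 fold change 0.64, adjusted p = 0.11) lay above every control library, while CXCL8 and TNFAIP3 overlapped. Genes off the list, again chosen after their values were seen, were IL27RA, a cytokine receptor, with 28.6, 30.5 and 33.3 FPKM under shCON and 13.9, 17 and 16.8 FPKM under shPAX6 (log2 fold change -0.95 with adjusted p = 0.033, limma), SOCS2, a feedback inhibitor of JAK-STAT receptors, with 28.7, 28.2 and 35.6 FPKM under shCON and 14.2, 17.4 and 15.1 FPKM under shPAX6 (log2 fold change -0.98, adjusted p = 0.038), and PTGES, a prostaglandin E synthase, which fell by 0.74 on the log2 scale (limma, adjusted p = 0.040).

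In antigen presentation, none of 19 tested class I genes passed and the median was -0.02, a sign that changed over the alternatives (-0.10 to 0.21). HLA-E had 71, 72.4 and 74.8 FPKM under shCON and 52.4, 46.3 and 52.1 FPKM under shPAX6, without overlap (log2 fold change -0.53 with adjusted p = 0.078, limma). None of the 6 class II genes tested passed either, and HLA-DQB1 was the single member without overlap (4.42, 3.12 and 3.74 FPKM in shPAX6 against 2.57, 2.75 and 2.6 FPKM in shCON).

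Of the mucosal secretory and surface proteins, 13 of 45 were tested and MUC1 alone fell. The median was -0.46, and it stayed below that of all features in each alternative (list minus all features from -0.44 to -0.23). The secretory mucins MUC2, MUC5AC and MUC5B, the trefoil factors and AGR2 were listed at 0 in every library. EPCAM, an epithelial adhesion molecule, had 11.7, 11.6 and 11.5 FPKM under shCON and 7.08, 6.75 and 6.71 FPKM under shPAX6, tight within groups and without overlap (log2 fold change -0.75, SE 0.14, limma, adjusted p = 0.054). SLPI, an antiprotease of mucosal fluid, had 3.55, 3.73 and 2.75 FPKM under shCON and 1.67, 0.343 and 0.953 FPKM under shPAX6 (log2 fold change -1.86, adjusted p = 0.11), and LCN2, which binds bacterial siderophores, had 2.82, 4.66 and 3.02 FPKM under shCON and 1.86, 1.2 and 2.1 FPKM under shPAX6 (log2 fold change -0.99, adjusted p = 0.15). Of 11 tested serine proteases and inhibitors none passed, with a median of -0.44. ST14, the membrane protease matriptase, had 1.32, 2.15 and 2.34 FPKM under shCON and 0.505, 0.64 and 0.526 FPKM under shPAX6 (log2 fold change -1.6 with adjusted p = 0.054, limma), and its inhibitor SPINT1 had 8.2, 9.57 and 11.7 FPKM under shCON and 6.49, 4.95 and 6.18 FPKM under shPAX6 (log2 fold change -0.72, adjusted p = 0.12). PLAU, the urokinase protease and the most abundant of them, had 359.6, 361 and 333 FPKM under shCON and 366, 401 and 417 FPKM under shPAX6. Its log2 fold change was 0.17, and -0.015 after quantile normalisation.

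Epithelial junction genes fell in 4 of 33 tested members (12.1%, against 1.02% of all features) and rose in none (0.177% of all features). Their median was -0.39, below that of all features in every alternative (-0.40 to -0.19 relative to it), and 14 of the 33 members had no overlap on the lower side (20% of all features did) against 2 on the higher (6.7% of all features). CDH1, E-cadherin of adherens junctions, had 6.27, 5.23 and 6.91 FPKM under shCON and 0.654, 1.56 and 1.57 FPKM under shPAX6. The 2 groups were far apart, with a ratio of means of 4.87 and a log2 fold change -2.28 (SE 0.34, limma, adjusted p = 0.033). CDH3, P-cadherin, had 20.9, 22.4 and 30.1 FPKM under shCON and 8.2, 11.7 and 11.8 FPKM under shPAX6 (log2 fold change -1.2, adjusted p = 0.048), and shCON library 3 was its highest. JUP, plakoglobin, which links both cadherins and desmosomes to the cytoskeleton, had 23.2, 24.1 and 29 FPKM under shCON and 13.1, 13.1 and 14 FPKM under shPAX6 (log2 fold change -0.91, adjusted p = 0.037). TJP3, a tight-junction scaffold that overlaps APBA3 on the opposite strand, had 1.08, 1.02 and 1.0 FPKM under shCON and 0.122, 0.154 and 0.331 FPKM under shPAX6 (log2 fold change -1.97, adjusted p = 0.045, limma).

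Most other junction genes were not called. The claudins were uneven, since CLDN4 and CLDN7 lay below every control, CLDN1 lay above with 30.2, 26.2 and 29.1 FPKM under shCON and 33.3, 58.4 and 44 FPKM under shPAX6 (log2 fold change 0.63, adjusted p = 0.18), and CLDN3 and CLDN12 overlapped. CLDN12 had 1.03, 20.7 and 14 FPKM in shPAX6, so library 1 by itself was far from the controls (12, 10.2 and 12.1 FPKM). F11R, the junctional adhesion molecule A, had 33.5, 30.3 and 32.5 FPKM under shCON and 14, 22.7 and 19.2 FPKM under shPAX6 and PKP3, a desmosomal plakophilin, had 22.7, 28.1 and 26.8 FPKM under shCON and 17.8, 12.3 and 15 FPKM under shPAX6 (log2 fold changes -0.81 with adjusted p = 0.092 and -0.79 with adjusted p = 0.081, limma). The catenins CTNNB1, CTNNA1 and CTNND1 overlapped. Without shPAX6 library 1, 8 junction genes passed as lower, and likewise 8 without shPAX6 library 2, whereas 0 passed without any 1 of the shCON libraries, without shPAX6 library 3 or with the replicate number as a block.

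Mesenchymal and matrix genes moved little as a list. Of 27 tested, 1 rose and none fell, and the median was -0.04, a sign that changed over the alternatives (-0.13 to 0.23). The member that rose was TPM1, an actin-binding tropomyosin, with 70.1, 69.4 and 65.4 FPKM under shCON and 126, 143 and 149.5 FPKM under shPAX6 (log2 fold change 1.03, SE 0.12, limma, adjusted p = 0.020). VIM, the filament vimentin, had 971, 1102 and 988 FPKM under shCON and 1685, 1306 and 1557 FPKM under shPAX6 (log2 fold change 0.56, adjusted p = 0.14), and CCN1, a matricellular target of YAP, had 299, 285 and 281 FPKM under shCON and 387, 453 and 474 FPKM under shPAX6 (log2 fold change 0.60, adjusted p = 0.085), both without overlap. MMP1 lay above every control without passing (log2 fold change 1.05, adjusted p = 0.079, limma). CDH2 (N-cadherin) had means of 0.0038 FPKM in shCON and 0 in shPAX6, and FN1 overlapped. MMP14, a membrane collagenase, had 40.7, 41.5 and 45.8 FPKM under shCON and 18.7, 25.6 and 25.4 FPKM under shPAX6 and COL6A2 had 35.5, 37 and 40.8 FPKM under shCON and 25.1, 18.5 and 21.7 FPKM under shPAX6, on the lower side (log2 fold changes -0.89 with adjusted p = 0.054 and -0.80 with adjusted p = 0.057, limma).

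Integrin and laminin genes fell in 2 of 19 tested members (10.5%, against 1.02% of all features). ITGA3 had 235, 235 and 276 FPKM under shCON and 103, 144 and 134 FPKM under shPAX6 (log2 fold change -0.98, SE 0.16, limma, adjusted p = 0.043), and ITGB4, the hemidesmosome subunit, had 8.33, 8.37 and 10.6 FPKM under shCON and 2.62, 4.27 and 3.78 FPKM under shPAX6 (log2 fold change -1.35, SE 0.23, limma, adjusted p = 0.043). ITGB4 overlaps GALK1 on the opposite strand. Their usual partners did not pass: ITGB1, which pairs with ITGA3, had 146, 382 and 261 FPKM in shPAX6, on both sides of the controls (269, 222 and 253 FPKM), and ITGA6, which pairs with ITGB4, had 6.61, 19.2 and 11.9 FPKM against 13.2, 11 and 12.9 FPKM. ITGB3 had the largest difference of the list, with 2.59, 2.47 and 3.37 FPKM under shCON and 0.188, 1.49 and 0.639 FPKM under shPAX6. It did not pass (log2 fold change -2.05, adjusted p = 0.13, limma). LAMB1 had 6.48, 5.75 and 7.58 FPKM under shCON and 1.78, 4.35 and 2.89 FPKM under shPAX6 (log2 fold change -1.19, adjusted p = 0.12). The list's median of -0.19 changed sign in the alternatives (-0.51 to 0.13). Further adhesion genes that passed, chosen after their values were seen, were BCAM, a laminin receptor (-0.79), FBLIM1, a filamin-binding adaptor of integrin sites (-1.63), and ADAM8, a sheddase (-1.31).

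Among keratins, KRT4, of stratified mucosa, rose from 0.382, 0.332 and 0.459 FPKM in shCON to 2.09, 1.78 and 1.7 FPKM in shPAX6 (log2 fold change 2.0, SE 0.25, limma, adjusted p = 0.022). Of 11 keratins tested it alone passed, at a level far under that of the simple keratins, and it met the level filter only through its shPAX6 values. KRT7 had 913, 1036 and 952 FPKM under shCON and 2263, 1057 and 1519 FPKM under shPAX6, without overlap but with shPAX6 library 1 far above the others (log2 fold change 0.67 with adjusted p = 0.25, limma). KRT8, KRT18 and KRT19 overlapped. The list's median was 0.13, above 0 in every alternative.

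**Figure D3:**
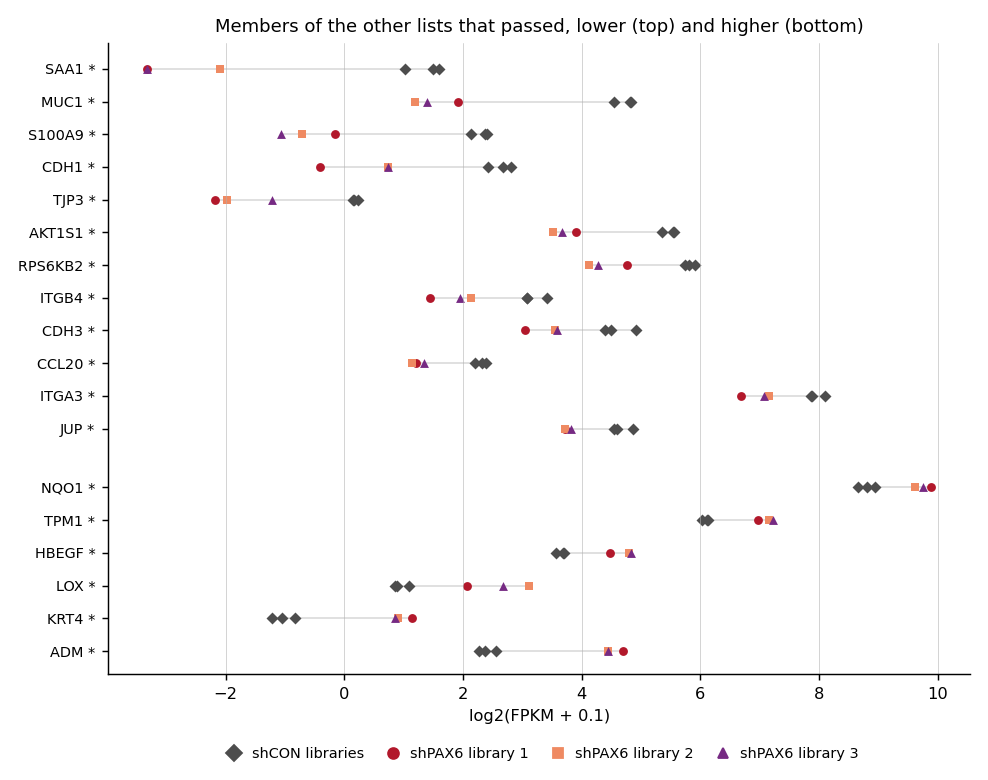
Level in each library, as log2(FPKM + 0.1), of the 12 genes that fell and the 6 that rose among members of the lists other than interferon. Grey diamonds are the 3 shCON libraries, each shPAX6 library has its own colour and marker, and the groups do not overlap for any of the 18 genes.

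Receptor tyrosine kinase signalling showed 1 change in 36 tested genes. HBEGF, a ligand of the EGF receptor, rose with 12.7, 11.8 and 12.9 FPKM under shCON and 22.3, 27.9 and 28.3 FPKM under shPAX6 (log2 fold change 1.05, SE 0.15, limma, adjusted p = 0.028). NRG1, a ligand of ERBB3 and ERBB4, had 0.464, 0.279 and 0.245 FPKM under shCON and 0.99, 0.996 and 1.8 FPKM under shPAX6, without overlap (log2 fold change 1.65, adjusted p = 0.074). Of the 15 receptors, 6 had no overlap on the lower side (20% of all features did) and none on the higher (6.7%), among them ERBB2 with 29.6, 30.7 and 30.9 FPKM under shCON and 16.3, 22.7 and 20.1 FPKM under shPAX6 (log2 fold change -0.64, adjusted p = 0.095) and INSR (log2 fold change -1.04, adjusted p = 0.11). EGFR had 5.45, 20.4 and 9.48 FPKM in shPAX6 against 14.6, 11.3 and 17.1 FPKM in shCON and overlapped. MET, the HGF receptor, had 20.8, 16.7 and 19.5 FPKM under shCON and 12.1, 37.3 and 18.9 FPKM under shPAX6. Its shPAX6 libraries lay on both sides of the controls (log2 fold change 0.11, SE 0.37, limma, adjusted p = 0.91), and without shPAX6 library 2 the value was -0.32. KMT5C and SMYD5, histone methyltransferase genes, had log2 fold changes of -0.01 (adjusted p = 0.99) and 0.01 (adjusted p = 0.97), by limma. KMT5C had 5.03, 6.43 and 7.57 FPKM under shCON and 8.02, 4.4 and 6.84 FPKM under shPAX6, and SMYD5 had 34.7, 32.9 and 35.6 FPKM under shCON and 34.1, 34 and 36.1 FPKM under shPAX6. The signs of both turned under several alternatives.

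In the AKT and mTOR list 2 of 28 tested genes fell (7.14%, against 1.02% of all features). AKT1S1, the mTORC1 inhibitor PRAS40, had 40.9, 46.2 and 46.9 FPKM under shCON and 14.9, 11.3 and 12.6 FPKM under shPAX6 (log2 fold change -1.79, SE 0.15, limma, adjusted p = 0.0049). RPS6KB2, an S6 kinase, had 53.6, 56.1 and 60.0 FPKM under shCON and 27, 17.3 and 19.2 FPKM under shPAX6 (log2 fold change -1.44, SE 0.18, limma, adjusted p = 0.023). Neither overlapped, but AKT1S1 overlaps other annotated genes on both strands. Their relatives differed little, since RPS6KB1 (log2 fold change 0.07, adjusted p = 0.93), MTOR (log2 fold change -0.05, adjusted p = 0.94) and AKT1 (log2 fold change -0.21, adjusted p = 0.57) overlapped. PIK3R2 had 0.666, 2.19 and 7.74 FPKM in shCON, so its difference rests on shCON library 3. The list's median was -0.21, and it stayed below that of all features. Kinases off the list that passed, chosen after their values were seen, included GRK6 with 34.3, 36.2 and 38.3 FPKM under shCON and 8.22, 6.09 and 9.25 FPKM under shPAX6 (log2 fold change -2.21, SE 0.18, limma, adjusted p = 0.0046), GRK2, like GRK6 a kinase of G protein-coupled receptors (-0.93), and MAPK3, the ERK1 kinase (-0.70). GRK6 overlaps F12 on the opposite strand.

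The hypoxia response did not move as a block. Of 30 tested, ADM and LOX rose (6.67%, against 0.177% of all features) and none fell. The median of -0.07 changed sign over the alternatives (-0.15 to 0.14). LOX, which cross-links collagen, had 1.71, 2.03 and 1.75 FPKM under shCON and 4.1, 8.55 and 6.26 FPKM under shPAX6, again highest in shPAX6 library 2 (log2 fold change 1.67, SE 0.28, limma, adjusted p = 0.043). LOX overlaps SRFBP1 on the opposite strand. CA12 (log2 fold change 0.98, adjusted p = 0.18), ANGPTL4 (log2 fold change 0.81, adjusted p = 0.10) and EGLN3 (log2 fold change 0.67, adjusted p = 0.15) had no overlap on the higher side. VEGFA, the main angiogenic factor, had 65.6, 59.5 and 63.3 FPKM under shCON and 28.4, 52.1 and 47.1 FPKM under shPAX6, and BHLHE40 and CITED2 had log2 fold changes of -0.81 (adjusted p = 0.078) and -0.70 (adjusted p = 0.088), all on the lower side by limma. SLC2A1, BNIP3 and STC2 overlapped. None of 18 glycolysis genes passed (median 0.08, -0.04 to 0.26 over the alternatives).

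The promoters of the 2 hypoxia genes that rose differ in the core hypoxia motif ACGTG, shown in capitals in the same form as above. LOX (chr5:122078260-122078459, minus strand) has 4 matches, at 185, 116, 98 and 42 bases before the start, and ADM (chr11:10304873-10305072) has none in its window.
LOX: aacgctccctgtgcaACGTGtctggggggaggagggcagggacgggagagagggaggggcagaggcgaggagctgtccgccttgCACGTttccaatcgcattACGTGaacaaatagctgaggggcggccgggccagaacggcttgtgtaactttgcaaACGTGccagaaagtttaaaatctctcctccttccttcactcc
ADM: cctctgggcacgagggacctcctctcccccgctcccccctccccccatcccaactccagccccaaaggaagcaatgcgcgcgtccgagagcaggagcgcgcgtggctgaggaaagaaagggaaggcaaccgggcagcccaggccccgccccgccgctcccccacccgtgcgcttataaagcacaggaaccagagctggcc
The motif was in 12 of 24 tested hypoxia genes with an entry (50%), 7 of 20 genes that rose (35%), 17 of 91 that fell (18.7%) and 27.1% of promoters of features tested.

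Antioxidant genes leaned upward. Of 22 tested NRF2 targets, 18 had a log2 fold change above 0, 8 had no overlap on the higher side (6.7% of all features did), and NQO1, a quinone reductase, rose with 493, 448 and 405 FPKM under shCON and 952, 786 and 863 FPKM under shPAX6 (log2 fold change 0.95, SE 0.15, limma, adjusted p = 0.040). The median of 0.34 was above 0 in every alternative and 0.27 to 0.50 above that of all features. FTL, the ferritin light chain, had 1581, 1641 and 1609 FPKM under shCON and 3914, 2018 and 2669 FPKM under shPAX6, and TXN, thioredoxin, had 444, 456 and 363 FPKM under shCON and 958, 485 and 659.8 FPKM under shPAX6, in both cases with shPAX6 library 1 the highest by far (log2 fold changes 0.78 with adjusted p = 0.18 and 0.69 with adjusted p = 0.22, limma). PRDX1 had 616, 611 and 539 FPKM under shCON and 990.1, 714 and 826 FPKM under shPAX6 (log2 fold change 0.51, adjusted p = 0.19). AKR1B10 lay narrowly above every control without passing (log2 fold change 1.22, adjusted p = 0.19, limma). GCLC, GCLM, TXNRD1 and SLC7A11 overlapped.

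Metallothioneins, which bind zinc and copper, had a median of 0.64 over 6 tested members, but it was 1.34 in shPAX6 library 1, -0.10 in library 2 and 0.47 in library 3 and no member passed. MT2A had 654, 750.3 and 611 FPKM under shCON and 2423, 705 and 1142 FPKM under shPAX6. MT1E and MT1M did not overlap (log2 fold changes 0.93 with adjusted p = 0.19 and 0.99 with adjusted p = 0.098, limma). The same order of libraries held for the S100 proteins, whose medians were 0.84, -0.28 and 0.24, although S100A9 was below the controls in each.

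Proteasome subunits lay slightly above the controls. Of 31 tested, 29 had a log2 fold change above 0, 11 had no overlap on the higher side and none on the lower, against 6.7% of all features that were higher without overlap. None passed, and the median was 0.30, 0.21 to 0.56 above that of all features over the alternatives. PSMC1 had 48.7, 45.1 and 42.2 FPKM under shCON and 86.4, 60.6 and 74.2 FPKM under shPAX6 (log2 fold change 0.69, adjusted p = 0.088), and PSMC5 had 189, 195 and 169 FPKM under shCON and 325, 199 and 256 FPKM under shPAX6 (log2 fold change 0.47, adjusted p = 0.26). The subunit medians were 0.42, 0.10 and 0.30 in shPAX6 libraries 1 to 3.

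Cytosolic ribosomal protein genes had a median of 0.18 over 79 tested, with medians of 0.72, -0.36 and 0.16 in the 3 shPAX6 libraries, so that libraries 1 and 2 lay on opposite sides of the controls. None was without overlap, and the median changed sign over the alternatives. Nuclear-encoded oxidative phosphorylation genes showed the same order (0.55, -0.34 and 0.06), with 0 of 77 called. Mitochondrial genes off that list that passed, chosen after their values were seen, included VDAC1, COX20 and MFF. OGDHL, given above, also passed as lower, as did POLRMT (log2 fold change -0.69), VARS2 (-0.88) and SLC8B1 (-0.89). VDAC1, the outer-membrane channel, fell with 229.8, 219 and 208 FPKM under shCON and 101, 104 and 107 FPKM under shPAX6 (log2 fold change -1.07, SE 0.12, limma, adjusted p = 0.014), and COX20, an assembly factor of cytochrome oxidase that overlaps HNRNPU on the opposite strand, rose with 11.3, 11.1 and 9.79 FPKM under shCON and 19.7, 22.5 and 21.1 FPKM under shPAX6 (log2 fold change 0.97, adjusted p = 0.028). MFF, a receptor for mitochondrial fission, fell with 128, 126 and 127 FPKM under shCON and 72.5, 71.3 and 75 FPKM under shPAX6 (log2 fold change -0.80, adjusted p = 0.027). VDAC1, COX20 and MFF were tight within groups. The mitochondrially encoded MT-ND6 had 441, 502 and 482 FPKM under shCON and 767, 677 and 631 FPKM under shPAX6 (log2 fold change 0.54, adjusted p = 0.12).

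Chromatin-modifying enzymes leaned downward without a call. Of 45 tested, 39 had a log2 fold change below 0, 15 had no overlap on the lower side (20% of all features did) and none on the higher. The median was -0.38, with -0.76, -0.07 and -0.31 in shPAX6 libraries 1 to 3. HDAC5, a class II deacetylase, had 8.58, 8.17 and 9.73 FPKM under shCON and 4.65, 4.81 and 4.99 FPKM under shPAX6 (log2 fold change -0.86, adjusted p = 0.054), and KDM2B, a demethylase of H3K36, had 7.49, 7.13 and 7.85 FPKM under shCON and 2.87, 4.6 and 3.85 FPKM under shPAX6 (log2 fold change -1.0, adjusted p = 0.071). EHMT2, the G9a methyltransferase, had 27.6, 26.3 and 29.6 FPKM under shCON and 19.1, 18.8 and 20.1 FPKM under shPAX6 (log2 fold change -0.52, adjusted p = 0.089, limma).

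Cell division genes were not called in either direction. Of 42 tested replication genes and 48 tested mitosis genes none passed, with medians of -0.08 and 0.03. The mitosis median was -0.41, 0.38 and 0.11 in the 3 shPAX6 libraries. None of 29 p53 targets and none of 16 BCL2 family members passed. CDKN2B, an inhibitor of CDK4 and CDK6 that was on no list and was chosen after its value was seen, fell with 4.81, 5.75 and 5.9 FPKM under shCON and 1.8, 2.5 and 2.22 FPKM under shPAX6 (log2 fold change -1.3, SE 0.20, limma, adjusted p = 0.038).

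Metabolic and secretory lists held no called gene either. In the amino acid response, NUPR1 lay below every control without passing (log2 fold change -2.65, adjusted p = 0.092, limma). The medians were 0.01 over 25 cholesterol synthesis genes, -0.36 over 15 fatty acid synthesis genes, -0.03 over 26 genes of the unfolded protein response, -0.09 over 39 of the amino acid response and -0.10 over 38 lysosome and autophagy genes, each changing sign over the alternatives. MAP1LC3B, the autophagosome protein LC3B, missed the threshold narrowly with 40.0, 37.3 and 37.8 FPKM under shCON and 57.7, 60.7 and 60.8 FPKM under shPAX6 (log2 fold change 0.64, SE 0.11, limma, adjusted p = 0.050). NEU1, a lysosomal sialidase, had 30.7, 30.1 and 32 FPKM under shCON and 20.9, 16.5 and 17 FPKM under shPAX6 (log2 fold change -0.78, adjusted p = 0.054). Of 41 Wnt and TGF-beta genes none passed (median -0.13): NKD2, a Wnt inhibitor, had 6.44, 6.62 and 7.21 FPKM under shCON and 3.42, 2.1 and 3.2 FPKM under shPAX6 (log2 fold change -1.22, adjusted p = 0.055), and DKK1, likewise an inhibitor, lay the other way with 72.1, 66 and 60.4 FPKM under shCON and 89.4, 104 and 105 FPKM under shPAX6 (log2 fold change 0.59, adjusted p = 0.083). Among 22 glycosyltransferases (median -0.09), B3GNT3 had 1.98, 2.35 and 2.5 FPKM under shCON and 1.02, 1.07 and 1.06 FPKM under shPAX6 (log2 fold change -1.04, adjusted p = 0.070). The 9 tested ion channel genes had a median of -0.36, below 0 in every alternative, and AQP3 had 11.1, 8.94 and 11.5 FPKM under shCON and 5.02, 7.47 and 6.91 FPKM under shPAX6 (log2 fold change -0.70, adjusted p = 0.14, limma). Histones (21 tested, median 0.14), heat shock chaperones (28, 0.16) and zinc and iron genes (23, 0.00) held no call.

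Across all 43 lists, 1259 distinct genes were named, 1021 were tested and 29 passed, 6 of them higher and 23 lower. Of all features tested, 1.2% passed, 0.177% higher and 1.02% lower. The lists in which 1 member passed are to be read beside these shares. In 29 lists no member passed. Of the 43 medians, 16 kept their sign in all 18 alternatives, among them interferon, acute phase, epithelial junctions, chromatin enzymes, antioxidant genes and proteasome.

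**Figure D4:**
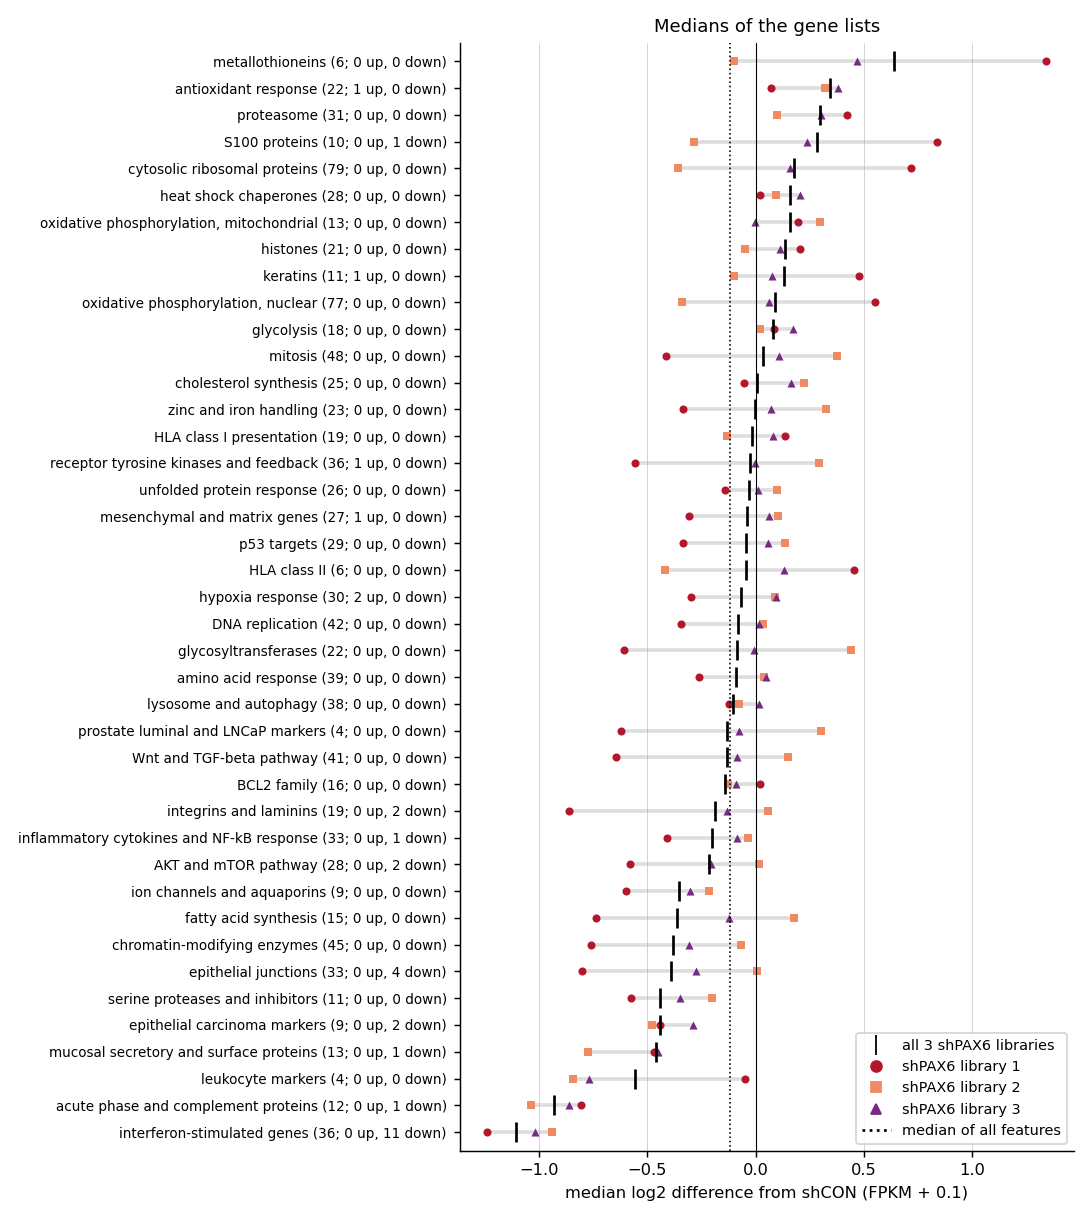
Median log2 fold change of shPAX6 over shCON for each list with at least 4 tested members (large marks), with the medians of each shPAX6 library against the shCON mean as small marks and the numbers of members that rose and fell beside them. The interferon list has the lowest median at -1.11, and the small marks of ribosomal proteins and metallothioneins spread across 0.

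Most markers of other cells were low. Of 14 leukocyte markers 4 were tested, PTPRC, CD3D and CD3E were listed at 0 in all libraries, and the summed level was 40.7 to 44.6 FPKM in shCON and 27.0 to 31.3 FPKM in shPAX6, most of it CD68, a lysosomal protein (log2 fold change -0.54, adjusted p = 0.077). Of 10 fibroblast markers 1 was tested (sums 0.37 to 0.68 FPKM in shCON and 0.38 to 0.83 FPKM in shPAX6), and DCN and LUM were at or near 0. Of 9 endothelial markers 1 was tested, and PECAM1 and VWF were near 0. Of 13 luminal prostate markers 4 were tested and none passed. Of the 13, 6 were at 0 in all libraries, and the summed level was 32.6 to 37.9 FPKM in shCON and 21.6 to 42.1 FPKM in shPAX6. SLC45A3 and STEAP2 were among those expressed, with shCON means of 2.41 and 1.13 FPKM. Of the 10 epithelial carcinoma markers, CDH1 and CDH3 fell, and KRT5 was listed at 0.

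The log2 fold change varied with the base composition of transcripts, and so did single libraries within both groups. Over 12009 features with a GC content (88.5% of those tested), Spearman's rho between GC and log2 fold change was -0.36, a description across genes, which are not independent. The median GC was 59.1% for genes that fell, 46.7% for genes that rose and 48.3% for all. When the features were cut into 5 equal classes by GC, 79 fell and 2 rose in the class of highest GC, and 4 fell and 4 rose in that of lowest GC. Taken per library on the difference from the shCON mean, the rho was -0.60, 0.35 and 0.22 in shCON libraries 1 to 3. It was 0.08 in shPAX6 library 1, -0.64 in shPAX6 library 2 and -0.34 in shPAX6 library 3. From the lowest to the highest GC class, the median difference went from 0.11 to -0.09 in shCON library 1 and from 0.42 to -0.44 in shPAX6 library 2. After each library was corrected for GC, 170 features passed, 77 higher and 93 lower, so that 54.7% of calls were lower instead of 85.3%. The 170 shared 93 features with the 163 calls made without the correction. Of the interferon list 12 fell after that correction. The part of base composition in the single results was not tested.

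Calls were also counted by chromosome. Chromosome 19, whose tested features had a median GC of 59.0%, held 25 of the falls among 890 features (2.81% called, against 1.2% overall), with 0 rises. Chromosome 21, with a median GC of 48.6%, held 4 falls among 123 features (3.25%): MX1, PCBP3, SIK1 and SIK1B. Chromosomes 22 and 16, with median GC of 56.5% and 55.2%, had 1.64% and 1.57% called. SIK1 and SIK1B are near-identical copies, so their values are uncertain.

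**Figure D5:**
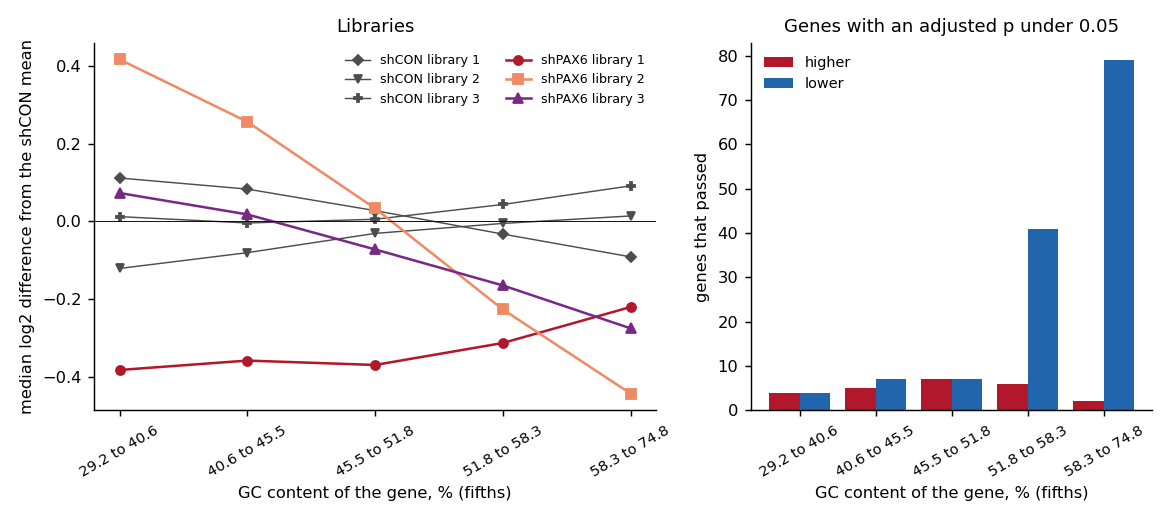
Median log2 difference of each library from the shCON mean in 5 equal classes of transcript GC content (%), and the number of features that rose and fell in each class. From the lowest to the highest class shPAX6 library 2 goes from 0.42 to -0.44 and shPAX6 library 1 from -0.38 to -0.22, and most falls lie in the upper classes, which hold 41 and 79 of them.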

How the data were processed

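Poly-A RNA, enriched from total RNA, of 3 shCON and 3 shPAX6 DU145 libraries had been sequenced. The study's methods name HISAT2 against GRCh37, StringTie and DESeq2, the submitters' notes also list STAR, and the labels and methods give different library kits and read lengths. The authors deposited 1 value per gene and library; the table names no unit, and the values were treated as FPKM made by the authors, since they are not whole numbers and their sums differ between libraries. Counts were not analysed here, read depth is unknown, and no count test was run.

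Values were tested as log2(FPKM + 0.1) by limma (two-sided, moderated variances with an intensity trend). The 13574 features averaging 0.5 FPKM or more entered, p-values were adjusted by Benjamini-Hochberg over all of them, and the threshold was 0.05. R 4.3.3, limma 3.58.1, Python 3.11.15, pandas 2.3.3 and SciPy 1.17.1 were used. Positions, overlaps and GC content came from GENCODE for GRCh37, and promoters from RefSeq GRCh38.p14. Of 19974 Ensembl identifiers, 19828 were in the annotation, and 4225 assembled features carry no identifier. Named genes were PAX6, MUC1, ADM, OASL, MET, KMT5C and SMYD5, the 15 largest rises and 15 largest falls that passed without overlap (the study's transcription factors left out), and in each list up to 6 members that passed and up to 2 further members without overlap in each direction. Not every gene chosen by these rules is printed. Other genes are values given beside their list or are said to be chosen after their values were seen. The comparison, the 43 gene lists and these rules were chosen with earlier results of these data known, so the lists are described by counts and medians and carry no test.

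On simulated data with 200 of 13574 genes changed, 88 were called for the comparison of shPAX6 with shCON. Of genes changed by 2 on the log2 scale 69.3% were recovered, and of genes changed by 1 it was 18.2%. The simulated noise was independent between genes and libraries. It lacked the library-wide shifts seen in these data, so the shares recovered hold only for that setting. Alternatives were other pseudocounts (1 and 0.01), a minimum mean of 1, no filter, rescaling to a common sum, quantile normalisation, median centring, no trend, a replicate block, Ensembl features alone, a loess GC correction per library (span 0.5, degree 2) with and without the block, and each library left out. The LNCaP libraries are in a separate table with 1 library per arm and were not used here. Results for some genes are not reported here, although they stay in the fit and in the counts of their lists.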

Additional observations from a re-analysis of the deposited data

How the results depend on the processing

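Against 163 calls (24 higher, 139 lower), calls numbered 108 with no filter on level (90 lower), 84 after rescaling each library to a common sum (8 higher, 76 lower), 100 after median centring (72 lower, 72% of calls), 236 after quantile normalisation (74 higher, 68.6% of calls lower) and 170 after the GC correction (77 higher). With pseudocounts of 1 and 0.01, a minimum mean of 1, no trend or Ensembl features alone there were 139 to 236. Leaving out 1 library gave from 0 to 922 calls, 0 to 200 higher and 0 to 722 lower. The median of all features moved from -0.12 to 0.01 under quantile normalisation, 0.06 under median centring and 0.03 under the GC correction. The libraries share replicate numbers by name only: deviations of same-numbered libraries correlated at -0.17, -0.37 and 0.05, so the number is not read as a pairing. With the number as a replicate block 0 features passed (1568 at an unadjusted p under 0.05, against 2480 without it), and 0 with the GC correction and the block (1637 at an unadjusted p under 0.05).

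PAX6 kept its direction in each alternative, and limma's adjusted p went from 0.054 to below the threshold with a pseudocount of 1 (log2 fold change -0.97), without a trend or with Ensembl features alone (-2.69 in both), and with the GC correction (-2.69). Over the libraries left out it ran from -3.16 (without shPAX6 library 2) to -2.31 (without shPAX6 library 1), both past the threshold. Over all alternatives its adjusted p was 0.010 to 0.33.

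Of 168 named genes under 18 alternatives, 2502 values kept direction and side of the threshold, 334 lost the call, 150 gained it and 22 changed sign; none of those 22 belonged to a gene that passed. With the GC correction, with or without the block, the log2 fold change was 0.030 for TRAP1, 0.105 for TAPBP, 0.149 for HSPA1B (a near copy of HSPA1A), 0.032 for PGD and 0.408 for KMT5C. Median centring gave 0.0025 for HSPA1B, 0.014 for PGD and 0.169 for KMT5C. Quantile normalisation gave 0.145 for KMT5C and -0.015 for PLAU, and rescaling gave -0.071 for SMYD5. With 1 library left out, KMT5C ran from -0.186 (shPAX6 library 1) to 0.240 (shPAX6 library 2), SMYD5 from -0.018 (shCON library 2) to 0.039 (shCON library 3), and MET from -0.319 (shPAX6 library 2) to 0.489 (shPAX6 library 1). The cause of these shifts was not tested. With 3 libraries a group and read depth unknown, small changes and genes near 0.5 FPKM could not be resolved.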

Other observations

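The genes below were on no list and were chosen after their values were seen. EFHD2, a calcium-binding adaptor of the actin cytoskeleton, had 311, 342 and 348 FPKM under shCON and 132, 98 and 120.4 FPKM under shPAX6 and a log2 fold change -1.52 (SE 0.15, limma, adjusted p = 0.0096). DBN1, the actin-binding protein drebrin, had 78, 84.8 and 79.7 FPKM under shCON and 23.5, 22.5 and 26.8 FPKM under shPAX6 (log2 fold change -1.74, adjusted p = 0.0032). Both are abundant, and their groups lay far apart. TGM2, a transglutaminase that cross-links proteins, had 269.5, 263 and 302 FPKM under shCON and 83.8, 144 and 131 FPKM under shPAX6, with shPAX6 library 1 the lowest (log2 fold change -1.25, SE 0.21, limma, adjusted p = 0.044). SSH3, a cofilin phosphatase, and CARMIL2, which uncaps actin filaments, fell as well (log2 fold changes -0.88 and -1.89).

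SEMA3F, a semaphorin, had 3.31, 3.47 and 4.02 FPKM under shCON and 1.0, 1.25 and 0.984 FPKM under shPAX6 (log2 fold change -1.65, adjusted p = 0.023), and SEMA6B, likewise a semaphorin, had 5.95, 6.37 and 7.23 FPKM under shCON and 1.9, 2.21 and 2.33 FPKM under shPAX6 (log2 fold change -1.56, adjusted p = 0.020). PTK7, a Wnt co-receptor, had 13.3, 12.9 and 16.3 FPKM under shCON and 4.47, 6.23 and 5.68 FPKM under shPAX6 (log2 fold change -1.36, adjusted p = 0.026), and SMO, the transducer of Hedgehog signalling, had 7.08, 8.21 and 8.58 FPKM under shCON and 3.68, 3.7 and 3.77 FPKM under shPAX6 (log2 fold change -1.07, adjusted p = 0.035). None of these overlapped between groups. PRAME, a tumour antigen of the testis type, had 11.5, 11.3 and 10.6 FPKM under shCON and 3.28, 4.16 and 5.2 FPKM under shPAX6 (log2 fold change -1.4, SE 0.20, limma, adjusted p = 0.029), whereas STK31, also of germ cells, rose. TYMP, thymidine phosphorylase, had 15.8, 18.4 and 21.5 FPKM under shCON and 8.48, 4.56 and 6.47 FPKM under shPAX6 (log2 fold change -1.53, adjusted p = 0.040), but it shares part of its span on the same strand with SCO2. SMS, spermine synthase, rose with 61.5, 61.3 and 52.8 FPKM under shCON and 98.6, 90.8 and 102 FPKM under shPAX6 (log2 fold change 0.73, adjusted p = 0.045), and RABGGTB, a subunit of the enzyme that adds lipid to RAB proteins, rose with 21.1, 19.5 and 20.0 FPKM under shCON and 35.7, 31.8 and 35.3 FPKM under shPAX6 (log2 fold change 0.76, adjusted p = 0.040). CYB561, an electron-transporting membrane cytochrome, had 19.7, 21.7 and 20.9 FPKM under shCON and 4.61, 5.47 and 5.61 FPKM under shPAX6, with close replicates in both groups (log2 fold change -1.97, SE 0.15, limma, adjusted p = 0.0033).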
